A study of Oncorhynchus mykiss with 13 samples.

Results

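The ovary of rainbow trout (Oncorhynchus mykiss) was compared between late vitellogenesis, when the oocyte still takes up yolk, and oocyte maturation, when meiosis resumes before ovulation. These stages were represented by 9 of the 13 arrays of the series, 3 from late vitellogenic females (females 2, 3 and 4) and 6 from maturing females (females 25 to 30). The females are numbered here by the number in the title of their array, and the labels do not say what it counts. The numbers of the compared stages do not overlap. If they follow an order of labelling or hybridization, that order cannot be told apart from stage. The 4 arrays of post-vitellogenic females, an intermediate stage, were left out. All fish were 2 year old females of an autumn-spawning strain in their first reproductive season and received no treatment. The late vitellogenic ovaries were taken weeks before ovulation was due, when no germinal vesicle (the oocyte nucleus) could be seen, and the maturing ovaries after the yolk had cleared, at about the time the germinal vesicle breaks down. Whole ovarian tissue was used, so each sample held oocytes together with the follicle layers and connective tissue around them. Total RNA of each female was copied into radioactive cDNA and hybridized to a nylon membrane that carried spotted trout cDNA clones. The deposited value of a clone is its spot signal, adjusted for how much DNA the spot carried and divided by the array median, so a ratio of 1 is a typical spot. Of 9023 clones, the 8089 with a ratio above 0 on all 9 arrays were compared.

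During vitellogenesis the follicle cells of fish convert androgens into estradiol with ovarian aromatase, and estradiol drives the liver to make the yolk precursor vitellogenin. Before maturation the follicle shifts from estradiol to progestin synthesis, and the progestin known as the maturation-inducing steroid acts on the oocyte to restart meiosis. The germinal vesicle then breaks down, the yolk clears, and the follicle wall prepares to release the oocyte at ovulation.

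Clones are given by their identifiers on the array. Names were available for the 90 clones that the study listed in 3 expression clusters, of which 89 were analysed here and clone tcay0037.g.24 was not. Most names, with or without "-like", are those of the closest SwissProt protein, mostly of another species. The study used such names for clarity. For members of protein families it leaves a firmer identification to phylogenetic analysis. The study chose these 90 clones on these same arrays, in clusters marked by low or by high levels in maturation. The counts of rises and falls and the median changes among them are therefore descriptions and not independent evidence. The functional lists used below are not the study's, whose tables group these clones by expression cluster only. The remaining 8000 clones analysed were not named in the sources used here, and no other marker of ovarian cell types could be looked up beside ovarian aromatase. In bulk tissue, fewer cells of a type and less RNA per cell cannot be told apart.

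Arrays of the same stage were alike. Pearson's r of log2 ratios across clones was 0.961 to 0.981 between late vitellogenic females, 0.913 to 0.98 between maturing females and 0.869 to 0.951 between females of different stages. The array of maturing female 30 stood apart, with r of 0.913 to 0.928 to its own stage, and without it r was 0.95 to 0.98 among maturing females and 0.924 to 0.951 between stages. Log2 ratios spread least on the array of female 30 (SD 1.08 across clones) and most on that of late vitellogenic female 3 (SD 1.35).

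Limma, a linear model that shares the estimate of spread across clones, called 289 of the 8089 clones at a Benjamini-Hochberg adjusted p under 0.05 (two-sided), which is 3.57%. Of these, 175 (2.16%) were higher and 114 (1.41%) lower in oocyte maturation. The excess of rises did not hold in every setting: 164 were higher and 155 lower after centring of each array, 602 and 669 with array weights, 231 and 224 with female 30 left out, and 162 and 173 when female 3 was left out too. Among called clones, 78 rose and 24 fell more than 2-fold, and 15 rose and 5 fell more than 4-fold. The median log2 change over all clones was 0.03, with 5th and 95th percentiles of -0.40 and 0.53. Without reference to a test, every maturing female lay above every late vitellogenic female for 468 clones (5.79%) and below for 347 (4.29%), together 10.1% of the clones compared. Of the called clones, 14 had overlapping stages. The number called fell when 1 late vitellogenic female was left out, to 178 without female 2 and to 124 without female 3 or 4. Such fits keep only 2 arrays of that stage and are less precise, so a lost call does not by itself single out a fish. Without female 30 the number called was 455. In the fits that left out each female in turn, 94 of the 289 clones, 74 higher and 20 lower, were called every time.

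**Figure D1:**
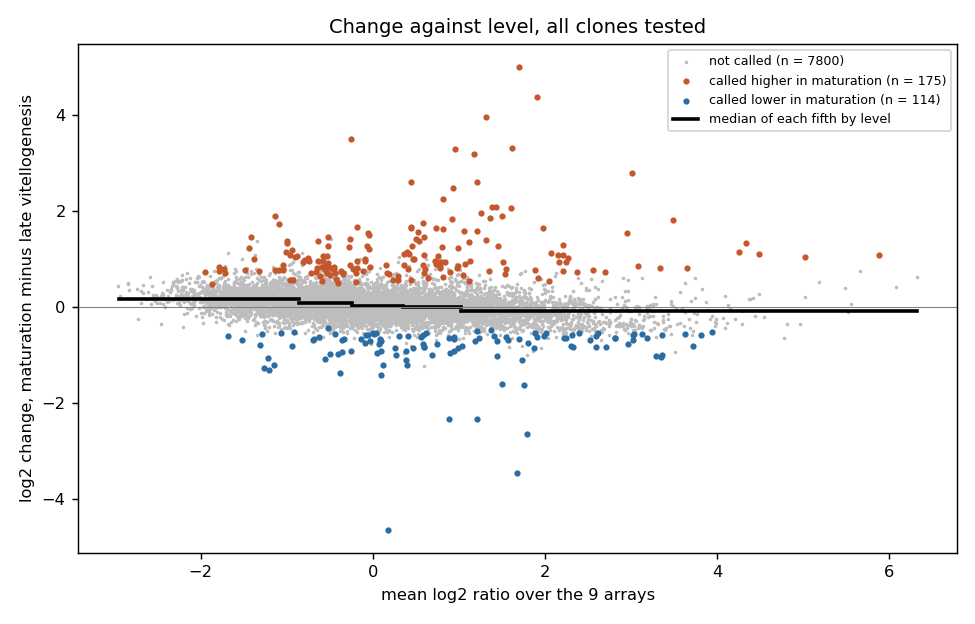
Log2 change from late vitellogenesis to oocyte maturation (vertical axis) against the mean log2 ratio over the 9 arrays (horizontal axis) for the 8089 clones compared. Orange points are the 175 clones called higher in maturation, blue points the 114 called lower and grey points the clones not called, and the black line steps from a median change of 0.17 among the dimmest clones to -0.09 among the brightest.

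The plot of change against level shows that the median log2 change moved with the level, from 0.17 in the dimmest of 5 equal classes of clones through 0.07, 0.01 and -0.01 to -0.09 in the brightest. In the dimmest class 27 clones were called higher and 11 lower, and in the brightest 51 were higher and 50 lower. The part of this trend in the calls was not tested. With cyclic loess normalization 329 clones were called, 60.2% of them higher, and 249 of the 289 calls were among them in the same direction. The share of higher calls was 60.6% in the values as deposited, 54.7% after quantile normalization and 51.4% after centring.

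The largest falls were those of cyp19a1, the ovarian aromatase that turns androgens into estrogens. The ratios of clone tcbk0013.n.16 were 10.8, 11.9 and 6.98 in late vitellogenic females 2, 3 and 4 and 0.348, 0.329, 0.319, 0.315, 0.442 and 0.65 in maturing females 25 to 30. The ratios of clone tcac0004.f.21 were 14.7, 19.2 and 14.2 in late vitellogenesis and 1.32, 1.37, 2.09, 1.24, 1.39 and 1.32 in maturation. The stages were far apart for both clones, and the signal of the first dropped below the array median in all 6 maturing females while that of the second stayed above it. The log2 changes were -4.64 ± 0.23 (SE) and -3.47 ± 0.17, which are 25-fold and 11.1-fold lower levels (limma, adjusted p = 8.3e-09 for each).

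Other clones in the list of estrogen synthesis and other P450 fell as well, with 1 exception. This list of 6 clones includes the cyp19a1 clones and a reductase that is not itself a P450. Of the 6, 5 were lower and 1 was higher in maturation, with a median log2 change of -0.97. A P450-reductase-like clone (tcba0022.f.09), matched to the protein that passes electrons to P450 enzymes including aromatase, had ratios of 2.87, 3.74 and 2.98 in late vitellogenesis and 1.58 to 2.21 in maturation. It was 1.64-fold lower (limma, adjusted p = 0.012) but was not called without female 3 (adjusted p = 0.088). The CYP2J3-like clone (tcac0006.f.17), named after a rat enzyme that oxidizes fatty acids, went from 2.21, 2.76 and 2.01 to between 0.793 and 1.16, a 2.33-fold lower level (adjusted p = 3.1e-04). The exception was a clone similar to CYP8B1 (tcac0005.m.05), a sterol hydroxylase of bile acid synthesis in mammals. Its ratios were 0.366, 0.278 and 0.388 in late vitellogenesis against 0.499 to 1.21 in maturation, a 2.59-fold rise (adjusted p = 0.0025).

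Vasotocin (avt, clone 1RT34L03_B_F02), the fish counterpart of vasopressin, showed the largest rise of all 8089 clones. Its ratios were 0.364, 0.285 and 0.324 in late vitellogenesis and 13.3, 10.8, 11.1, 12.6, 6.53 and 8.97 in maturing females 25 to 30. A transcript well below the array median in each late vitellogenic female was thus well above it in each maturing one. The log2 change was 4.99 ± 0.20 (SE), a 31.9-fold rise (limma, adjusted p = 1.0e-09), and with each female left out in turn the fold ran from 29.9 to 34.9. Isotocin (1RT113L09_B_F05), the fish counterpart of oxytocin, is made by a gene of the same family. It went from 0.778, 0.544 and 0.805 to between 2.86 and 5.35 (median 4.57), which was 6.06-fold higher (adjusted p = 1.8e-06).

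All 5 clones listed as hormones, chemokine and receptor signalling were called higher, with a median log2 change of 2.47. The chemokine cxcl14 (tcba0028.m.20), a secreted attractant of immune cells, had ratios of 0.801, 0.462 and 0.613 in late vitellogenesis and 2.17 to 4.45 in maturation, a 5.54-fold rise (limma, adjusted p = 4.6e-06). The RGS18-like clone (tcbk0004.a.22), matched to a protein that shortens signalling by G-protein-coupled receptors, was 2.38-fold higher (adjusted p = 0.0029). The smallest change was in a clone similar to RAMP1 (tcba0013.e.11), a partner protein of receptors of the calcitonin family. Its ratios were 0.639, 0.544 and 0.617 against 0.743 to 0.928, a 1.42-fold rise (adjusted p = 0.044) that was lost without any 1 of females 2, 3, 4, 25, 27, 28 or 29 (highest adjusted p = 0.21) and under quantile normalization (adjusted p = 0.079).

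Ion and water transport was the functional list with the highest median change. Its 3 clones, of slc26 and aqp4 only, were all called higher, with a median log2 change of 3.30. Pendrin (slc26, tcbk0013.j.13), an exchanger of chloride for other anions, had ratios of 0.381, 0.415 and 0.406 in late vitellogenesis and 8.66, 5.93, 8.9, 8.38, 2.63 and 5.65 in maturing females 25 to 30. The late vitellogenic values hardly differed, whereas the maturing females ranged widely with female 29 lowest, and the level was 15.5-fold higher in maturation (log2 change 3.95 ± 0.30 SE, limma, adjusted p = 1.2e-06). Aquaporin 4 (aqp4), a water channel, was carried by clones tcbk0036.e.03 and tcbk0056.f.03. The first went from 0.621, 0.692 and 0.69 to 5.43, 3.48, 8.84, 11.6, 7.6 and 5.42. The second went from 0.396, 0.401 and 0.488 to 4.7, 2.38, 4.64, 7.42, 4.21 and 3.17. Both were lowest in female 26 and highest in female 28 among the maturing fish. Their rises were 9.84-fold and 9.75-fold (log2 changes of 3.30 and 3.29, adjusted p = 3.8e-06 and 1.8e-06).

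**Figure D2:**
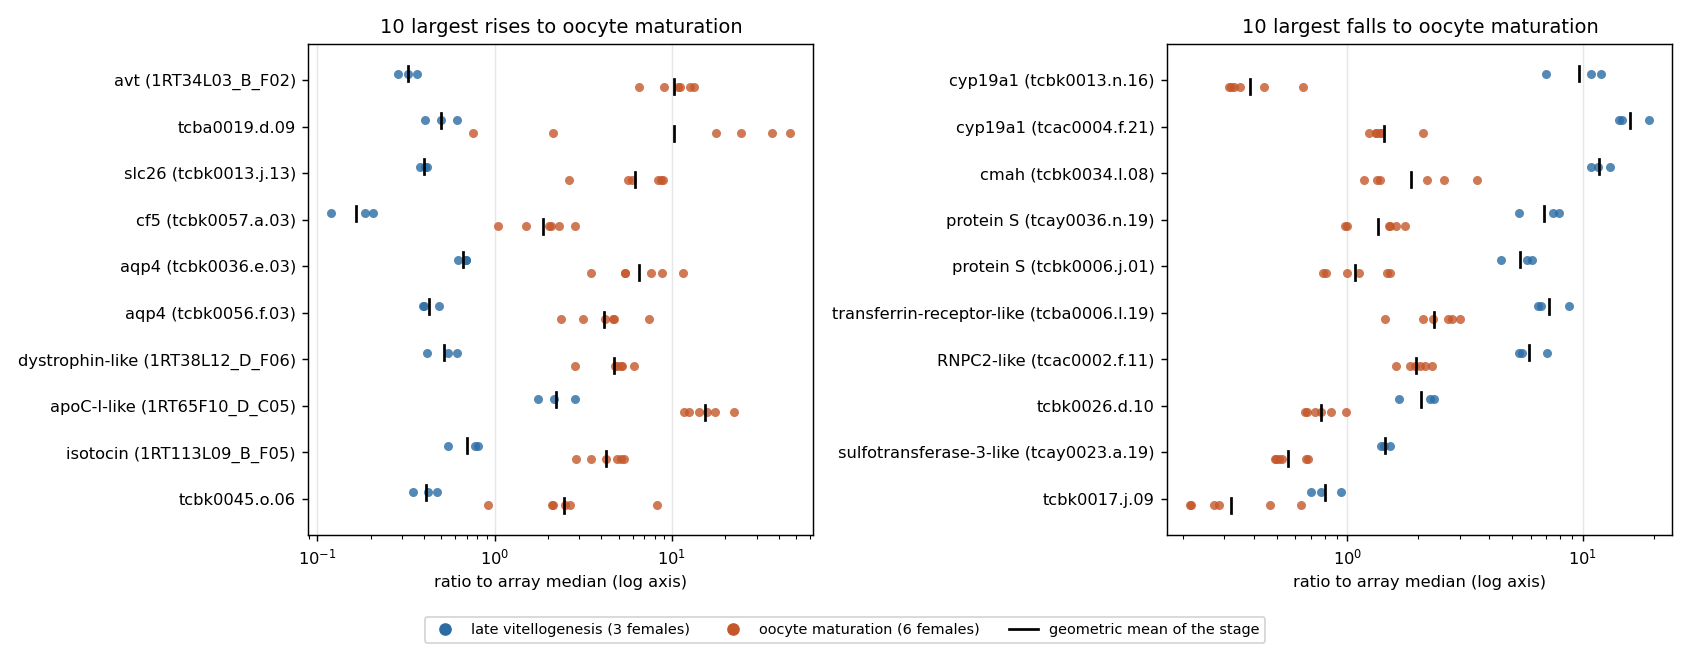
Ratio to the array median (horizontal log axis) in each female for the 10 clones with the largest rise and the 10 with the largest fall among called clones whose stages did not overlap. Blue points are late vitellogenic females, orange points maturing females and black bars geometric means. The maturing females sat close together for avt (6.53 to 13.3) and widely apart for tcba0019.d.09 (0.757 to 46.6).

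Clones matched to blood coagulation proteins changed in opposite directions. Coagulation factor V (cf5, tcbk0057.a.03), a cofactor of thrombin formation, had ratios of 0.206, 0.12 and 0.185 in late vitellogenesis and 1.51, 2.85, 2.32, 2.09, 1.05 and 2.03 in maturation, an 11.3-fold rise (limma, adjusted p = 1.2e-06). A clone similar to clotting factor C (tcbk0053.e.07), a serine protease of horseshoe crab blood, rose 2.74-fold (adjusted p = 0.0011). Protein S, an anticoagulant that in mammals aids the inactivation of factor V, fell. Clone tcay0036.n.19 had ratios of 5.34, 7.45 and 7.93 against 0.974 to 1.75, and clone tcbk0006.j.01 had 4.5, 6.1 and 5.8 against 0.784 to 1.52. The falls were 5.03-fold and 5.02-fold (adjusted p = 4.8e-06 and 7.2e-06), so the 4 coagulation clones split into 2 higher and 2 lower.

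Clones of the extracellular matrix and cell surface were mostly higher in maturation, with 6 called higher, 1 called lower and a median log2 change of 1.39. The glypican-3-like clone (tcbk0013.j.22), a heparan sulfate proteoglycan, had ratios of 0.186, 0.199 and 0.182 in late vitellogenesis and 0.38 to 0.888 in maturation (median 0.779), with female 29 lowest. It rose 3.73-fold (limma, adjusted p = 1.2e-04). A collagen-like clone (tcbk0048.p.10), whose closest match was a protein of a virus (mimivirus) and not a fish collagen, went from 0.485, 0.501 and 0.44 to between 0.971 and 2.2. A clone similar to claudin-11 (tcay0008.f.19), a tight junction protein, went from 0.76, 0.664 and 0.905 to between 1.61 and 2.98. These rises were 2.88-fold and 2.74-fold (adjusted p = 0.0011 and 1.7e-04). A PTPRF-like clone (1RT67D22_D_B11), a receptor phosphatase, rose 2.63-fold (adjusted p = 5.5e-05). Clones similar to LTBP2 (tcac0006.o.01), a matrix protein of the family that binds latent TGF-beta, and basigin (tcba0030.f.01), an inducer of matrix metalloproteinases, rose 2-fold and 1.91-fold. The clone that fell was similar to HSP47 (1RT146H05_B_D03), the chaperone that folds procollagen, with ratios of 1.72, 1.93 and 2.27 against 1.19 to 1.38. Its 1.54-fold fall (adjusted p = 0.013) was lost without female 3 or 4 (highest adjusted p = 0.13).

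Among clones of muscle and cytoskeleton, 4 were called higher, 2 lower and 2 were not called. A clone similar to dystrophin (1RT38L12_D_F06), which ties the cytoskeleton to the matrix outside the cell, had ratios of 0.617, 0.417 and 0.544 in late vitellogenesis and 6.12, 4.78, 5.13, 5.23, 2.85 and 4.87 in maturing females. All maturing females except female 29 lay within a narrow band, and the rise was 9.07-fold (log2 change 3.18 ± 0.21 SE, limma, adjusted p = 2.4e-07). Clones similar to the smooth muscle proteins smoothelin (tcbk0048.o.16) and caldesmon (tcay0013.c.09) rose 3.85-fold and 3.17-fold (adjusted p = 1.4e-05 and 7.7e-04). The smoothelin-like clone went from 1.05, 0.924 and 0.949 to between 2.72 and 5.59. An ON3-like clone (1RT63M21_A_G11), an intermediate filament protein of goldfish, rose 2.97-fold (adjusted p = 2.9e-05). Tropomyosin 4, an actin-binding protein, was matched by clones tcay0031.j.13 and tcaa0001.g.20, which fell 1.8-fold and 1.56-fold (adjusted p = 0.0062 and 0.049). The call of the first was lost without female 4 (adjusted p = 0.069), and that of the second without any 1 of females 2, 3, 4, 25, 26, 27 or 29 (highest adjusted p = 0.25) and under quantile normalization (adjusted p = 0.093).

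All 9 clones listed as kinases and transcription factors were called higher, with a median log2 change of 1.34. Serum and glucocorticoid regulated kinase 2 (SGK2) belongs to a family of kinases that regulate ion transport. The SGK2-like clone 1RT164G02_C_D01 went from 0.879, 0.98 and 1.16 to between 3.09 and 5.5, a 4.23-fold rise (limma, adjusted p = 4.6e-06). Clones similar to FOXO3, a forkhead transcription factor, were tcbk0035.k.02, which rose 3.15-fold from 0.53, 0.333 and 0.393, and 1RT148E11_A_C06, which rose 2.4-fold from 0.517, 0.469 and 0.615. The maturing females ranged from 0.961 to 1.74 on the first and from 0.997 to 1.59 on the second, with female 30 lowest and female 27 highest on each. Clones similar to GADD45B (1RT105A23_A_A12), a stress-response protein, ETS2 (1RT148F22_D_C11) and the coactivator-binding protein CITED2 (1RT124G08_C_D04) rose 2.8-fold, 2.54-fold and 2.2-fold. The PKC-delta-like clone (1RT30D15_B_B08) rose 1.95-fold (adjusted p = 0.011), and its call was lost without female 3 (adjusted p = 0.087).

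Lysosomal and lipid-handling clones were also mostly higher, with 5 called higher and 1 lower and a median log2 change of 1.86. The apoC-I-like clone (1RT65F10_D_C05), matched to apolipoprotein C-I, a small protein of plasma lipoproteins, was above the array median in every female. Its ratios were 2.17, 2.85 and 1.75 in late vitellogenesis and 12.5, 22.5, 14.3, 17.4, 11.7 and 15.8 in maturation. The stages did not overlap, and the rise was 6.93-fold (log2 change 2.79 ± 0.20 SE, limma, adjusted p = 9.6e-07). Palmitoyl-protein thioesterase 1 (PPT1), a lysosomal enzyme that removes fatty acids from proteins, was matched by clones tcad0003.m.13 and 1RT63G21_A_D11. They rose 4.19-fold and 4.18-fold (adjusted p = 2.4e-07 and 4.8e-06). The maturing females lay between 3.92 and 5.32 on the first and between 3.34 and 6.52 on the second. A clone similar to the fatty acid elongase ELOVL1 (tcba0014.c.14) was the only listed clone whose stages overlapped. Its ratios were 1.41, 1.98 and 2.22 in late vitellogenesis and 4.6, 2.13, 5.66, 9.69, 8.63 and 7.86 in maturation, with maturing female 26 below late vitellogenic female 4. It was called 3.13-fold higher (adjusted p = 0.019), but not without any 1 of females 2, 3 or 4 (highest adjusted p = 0.092). The TPP1-like clone (1RT62L08_D_F04), a lysosomal peptidase, rose 1.68-fold. The clone similar to phospholipid-transporting ATPase IF (tcbk0037.f.02) fell 1.71-fold (adjusted p = 0.0081), and its call was lost without female 3 or 4 (highest adjusted p = 0.072).

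Of the iron and copper clones, the one similar to the transferrin receptor (tcba0006.l.19), which brings iron into cells, fell and the others rose. Its ratios were 6.61, 8.72 and 6.47 in late vitellogenesis against 1.45 to 3 in maturation, a 3.1-fold fall (limma, adjusted p = 2.1e-04). The CTR1-like clone (tcbk0046.i.17), a copper importer, went from 0.821, 0.693 and 0.699 to between 1.42 and 2.92. It rose 2.68-fold (adjusted p = 0.0017), and the clone similar to hephaestin (tcay0007.b.05), a copper-dependent iron oxidase, rose 1.92-fold (adjusted p = 0.0025).

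Detoxification and redox clones gave 3 falls and 1 rise. A clone similar to cytosolic sulfotransferase 3 of zebrafish (tcay0023.a.19), whose family conjugates steroids and phenols, had ratios of 1.43, 1.39 and 1.52 against 0.493 to 0.678 and fell 2.6-fold (limma, adjusted p = 3.4e-05). Clones similar to glutathione S-transferase P (tcbk0045.m.11) and retinol dehydrogenase 3 (tcbk0003.k.18) fell 1.78-fold and 1.48-fold (adjusted p = 0.0026 and 0.025), the latter call being lost without any 1 of females 2, 3, 4, 27 or 28 (highest adjusted p = 0.13). The rise was that of the clone similar to GPX4 (tcad0009.n.15), a peroxidase that repairs oxidized membrane lipids. Its ratios were 0.727, 0.755 and 0.828 in late vitellogenesis and 2.47, 1.88, 1.95, 0.943, 2.58 and 2.84 in maturation, so that female 28 was close to the late vitellogenic fish, and the rise was 2.59-fold (adjusted p = 0.0080).

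Among clones of proteases, the proteasome and protein folding, 4 were called higher, 1 lower and 2 were not called. Serine protease 23 (sp23, tcav0003.l.01) went from 1.05, 1.18 and 1.33 to 4.53, 5.4, 3.63, 3.77, 3.1 and 6.95, a 3.72-fold rise (limma, adjusted p = 7.3e-05). By real-time PCR, which included further females, the study found sp23 higher in maturation than in late vitellogenesis but not significantly so. It reported the same direction by PCR as on the arrays for all genes it selected. For avt, slc26, cf5 and cyp19a1 the changes it reported by PCR were larger than the array folds given here. The clone adam22 (1RT106O19_A_H10), of the disintegrin and metalloproteinase family, went from 1.24, 1.07 and 1.07 to between 1.98 and 3.45 and rose 2.35-fold (adjusted p = 0.0011). A PSMD2-like clone (1RT44O11_A_H06), a proteasome subunit, rose 1.71-fold (adjusted p = 0.017) and lost its call without female 3 or 4 (highest adjusted p = 0.12). The dipeptidase-like clone tcbk0039.a.06 fell 1.73-fold (adjusted p = 0.0072).

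RNA and translation was the only list with falls and no rise, and all its clones came from the study's cluster of low levels in maturation. Of its 6 clones, 4 were called lower and 2 were not called, with a median log2 change of -0.52. The RNPC2-like clone (tcac0002.f.11), a splicing factor, had ratios of 5.52, 7.05 and 5.37 in late vitellogenesis and 1.93, 2.04, 1.85, 2.28, 2.13 and 1.6 in maturation. Both stages were narrow, and the level was 3.03-fold lower (log2 change -1.60 ± 0.15 SE, limma, adjusted p = 7.2e-06). The L4-like clone (tcak0001.o.11), a ribosomal protein, went from 4.71, 5.2 and 4.9 to between 2.55 and 3.45 and was 1.69-fold lower (adjusted p = 0.0041). Clones similar to the mitochondrial ribosomal protein S30 (tcab0003.h.21) and to RRP40 (tcba0023.m.01), a subunit of the RNA-degrading exosome, were 1.51-fold and 1.37-fold lower (adjusted p = 0.032 and 0.050). The first lost its call without any 1 of females 3, 4, 25, 28 or 29 and the second without any 1 of females 2, 3, 4 or 25 to 29 (highest adjusted p = 0.21 and 0.20). Clones similar to Y-box binding protein 1 (tcac0002.b.13) and eIF-2-beta (tcay0023.c.11), both proteins of mRNA binding or translation initiation, were not called, with log2 changes of -0.43 and -0.35 (adjusted p = 0.075 and 0.13).

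Mitochondrial and metabolic clones were mixed, with 4 called higher, 1 lower, 3 not called and a median log2 change of 0.12. The fall, the largest after those of the cyp19a1 clones, was that of cmah (tcbk0034.l.08), which hydroxylates sialic acid. Its ratios were 10.8, 13 and 11.6 in late vitellogenesis and 1.38, 2.17, 1.33, 2.56, 3.56 and 1.18 in maturation. It was 6.29-fold lower (log2 change -2.65 ± 0.28 SE, limma, adjusted p = 4.3e-05). The clone similar to purine nucleoside phosphorylase (1RT98J03_B_E02) went from 0.954, 0.72 and 0.788 to between 1.28 and 4.69, with female 29 lowest, and rose 3.54-fold (adjusted p = 0.0021). Clones similar to aminoacylase-3 (tcba0016.h.07) and TIM14 (1RT62P05_B_H03), a part of the mitochondrial import machinery, rose 2.08-fold and 1.84-fold (adjusted p = 0.0021 and 0.0028). The clone similar to 10-formyltetrahydrofolate dehydrogenase (FTHFD-like, 1RT110O02_C_H01) rose 1.6-fold (adjusted p = 0.028), but lost its call without any 1 of females 2, 3, 4, 25, 27 or 29 (highest adjusted p = 0.14).

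**Figure D3:**
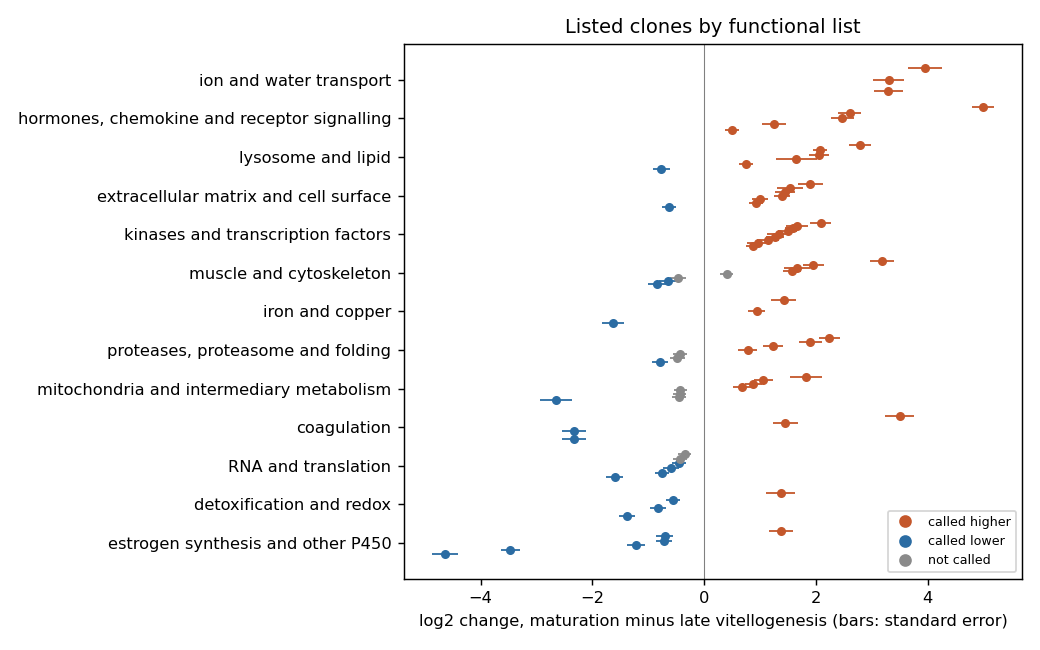
Log2 change from late vitellogenesis to oocyte maturation (horizontal axis, bars are standard errors of limma) of the listed clones, by functional list. Orange points were called higher, blue lower and grey were not called, and clones without a SwissProt match or in no list are left out. The lists run from a median of 3.30 for ion and water transport to -0.97 for estrogen synthesis and other P450.

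In the plot of the functional lists, all points lay on the right for ion and water transport, hormones and signalling, and kinases and transcription factors, and all lay on the left for RNA and translation. In the study, clones of the lists wholly on the right came from clusters of high levels in maturation. Those of RNA and translation came from the cluster of low levels. In total 56 of the 89 listed clones were called higher, 23 lower and 10 were not called, and the stages did not overlap for 88, where 3.57% of all clones were called and 10.1% had no overlap. The list was chosen for stage differences on these arrays, so nothing is read from these counts. Clones with no SwissProt match gave 8 rises, 1 fall and 1 clone not called. The most changed of these, 1RT41I23_A_E12, went from 1.22, 0.988 and 1.08 to between 2.71 and 4.65 (3.6-fold, limma, adjusted p = 1.0e-05). The clone tcbk0008.n.08 rose 3.14-fold (adjusted p = 1.1e-04). Of 3 clones in no list, visinin-like 1 (tcba0028.o.19), a neuronal calcium sensor, and the RNF24-like clone (tcba0030.e.12) rose 2.06-fold and 2.11-fold, and the C9orf10-like clone (1RT148P13_B_H07) fell 1.53-fold. The call of the RNF24-like clone was lost without female 3 (adjusted p = 0.052), and that of the C9orf10-like clone without any 1 of females 2, 3, 4 or 27 (highest adjusted p = 0.11).

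The listed clones that were not called had small changes, from 1.28-fold to 1.41-fold, and adjusted p from 0.058 to 0.13 (limma). Besides those named above they were similar to junctophilin-2 (1RT129O11_A_H06), a protein of junctional membranes in muscle, the chaperonin subunit TCP-1-theta (1RT36F13_B_C07), adenylate kinase 2 (1RT64O23_A_H12), signal peptide peptidase (tcay0009.k.05), a subunit of NADH dehydrogenase (tcay0017.l.02), aminomethyltransferase (tcay0037.m.03) and dystrophin (tcbk0050.j.02), with 1RT138M15_A_G08 having no match. Of these 8 clones, the log2 changes of the 7 other than the dystrophin-like clone were between -0.43 and -0.49, and that of the dystrophin-like clone was 0.40. Centring of each array ended the call of the RAMP1-like clone (adjusted p = 0.055) and moved 5 listed clones to a call, those similar to adenylate kinase 2, Y-box binding protein 1, signal peptide peptidase, NADH dehydrogenase and aminomethyltransferase (adjusted p = 0.031 to 0.044).

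Where 2 listed clones shared a gene or a SwissProt match, their changes were set side by side. The pairs of aqp4 (log2 changes of 3.30 and 3.29), protein S (-2.33 for each) and PPT1-like clones (2.07 and 2.06) moved by nearly the same amount. The FOXO3-like clones differed by 0.39 on the log2 scale and the tropomyosin-4-like clones by 0.21. The cyp19a1 clones both fell but differed by 1.17, and the SGK2-like clones both rose but differed by 1.21, since tcba0018.p.09 rose only 1.82-fold, from 0.317, 0.292 and 0.373 to between 0.536 and 0.684 (limma, adjusted p = 0.0018). The dystrophin-like clones were the least alike, with log2 changes of 3.18 and 0.40. The study placed the 2 clones of cyp19a1, of protein S and of aqp4 each in 1 UniGene cluster, which it treats as 1 gene. The FOXO3-like, SGK2-like, tropomyosin-4-like and PPT1-like pairs were in different clusters, and the dystrophin-like clones had none listed. In the study's tables the PPT1-like clones nevertheless shared a contig, a sequence assembled from overlapping reads. The FOXO3-like, SGK2-like, tropomyosin-4-like and dystrophin-like pairs shared neither a cluster nor a contig. For these pairs a shared best match does not show that 2 clones come from 1 gene. The differences within pairs were not tested.

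The unlisted clones held 210 of the 289 calls, or 72.7%, with 119 higher and 91 lower among 8000 clones. Their changes were mostly small, and 2 unlisted clones exceeded a 4-fold rise and 0 a 4-fold fall. The steadiest of the large rises was that of tcad0002.l.09, with ratios of 4.65, 5.11 and 4.77 in late vitellogenesis and 15.1, 19.8, 23.2, 17.8, 12 and 16.2 in maturation. It rose 3.51-fold (log2 change 1.81 ± 0.18 SE, limma, adjusted p = 1.5e-05) and was called whichever female was left out. The clone tcay0009.l.09 rose 3.36-fold (adjusted p = 0.0018), from 0.616, 0.662 and 0.729 to between 1.32 and 4.14, and tcay0010.l.05 rose 3.13-fold (adjusted p = 0.0018). In the first, female 30 was highest, and in the second, females 26 and 27 were. The clones tcbk0049.o.22 (3.3-fold), 1RT42F07_B_C04 (3.08-fold) and tcad0007.d.07 (2.92-fold) also rose. The call of tcbk0049.o.22 was lost without female 3 (adjusted p = 0.051) and that of 1RT42F07_B_C04 without female 3 or 4 (highest adjusted p = 0.11).

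Among unlisted clones that fell, tcbk0026.d.10 changed most. Its ratios were 2.24, 1.65 and 2.34 in late vitellogenesis and 0.663, 0.853, 0.73, 0.67, 0.77 and 0.983 in maturation, a 2.66-fold fall (limma, adjusted p = 8.6e-05). The other 7 of the largest unlisted falls ran from 2.04-fold to 2.5-fold. Of these only 1RT47G19_A_D10, which fell 2.14-fold from 1.62, 2.64 and 2.4 to between 0.767 and 1.36 (adjusted p = 0.0041), was called whichever female was left out. The calls of tcaa0002.m.12 and tcbk0027.h.05 were lost without female 3 (adjusted p = 0.085 and 0.070), those of tcac0001.b.02 and tcac0005.g.18 without female 4 (adjusted p = 0.069 and 0.072), that of tcbk0017.j.09 without female 3 or 4 (highest adjusted p = 0.12) and that of tcbk0040.p.09 without any 1 of females 2, 3 or 29 (highest adjusted p = 0.13). The ratios of tcac0001.b.02 were 13.5, 17.1 and 19.5 in late vitellogenesis and those of tcac0005.g.18 were 13.1, 15.6 and 19.1, and in maturation each clone was highest in female 26, at 11.5 and 10.9.

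The maturing females differed more among themselves for the clones that rose than for other clones. The median SD of log2 ratios over the 6 maturing females was 0.32 for the 175 clones called higher, 0.23 for the 114 called lower and 0.22 for all clones. In late vitellogenesis these medians were 0.19, 0.17 and 0.18. Without female 30 the medians in maturation were 0.31, 0.20 and 0.18. Female 29 had the lowest ratio of the 6 for 75 of the 175 rising clones (42.9%, against 16.5% of all clones), and female 27 the highest for 61 (34.9%, against 8.46% of all clones). The mean log2 ratio of the rising clones was 0.62 in female 29 and 1.08 in female 27, and between 0.77 and 0.96 in the other maturing females.

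The widest spread among large rises was that of the unlisted clone tcba0019.d.09. Its ratios were 0.61, 0.406 and 0.5 in late vitellogenesis, 17.8, 36.9, 46.6 and 24.4 in females 25 to 28, and 0.757 and 2.13 in females 29 and 30. Female 29 was thus barely above late vitellogenic female 2, while females 25 to 28 were far above it. The fitted rise was 20.7-fold (log2 change 4.37 ± 1.01 SE, limma, adjusted p = 0.025), and it was not called without any 1 of females 2, 3 or 4 (highest adjusted p = 0.11) or with the trend and robust settings of the variance model together (adjusted p = 0.17). Its fold was 34.9 without female 29 and 15.3 without female 27. The unlisted clone tcbk0045.o.06 had ratios of 0.423, 0.345 and 0.473 in late vitellogenesis and 2.66, 2.48, 8.19, 2.11, 0.922 and 2.13 in maturation, where female 27 was far above the others. Its rise was 6-fold (adjusted p = 0.0030).

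**Figure D4:**
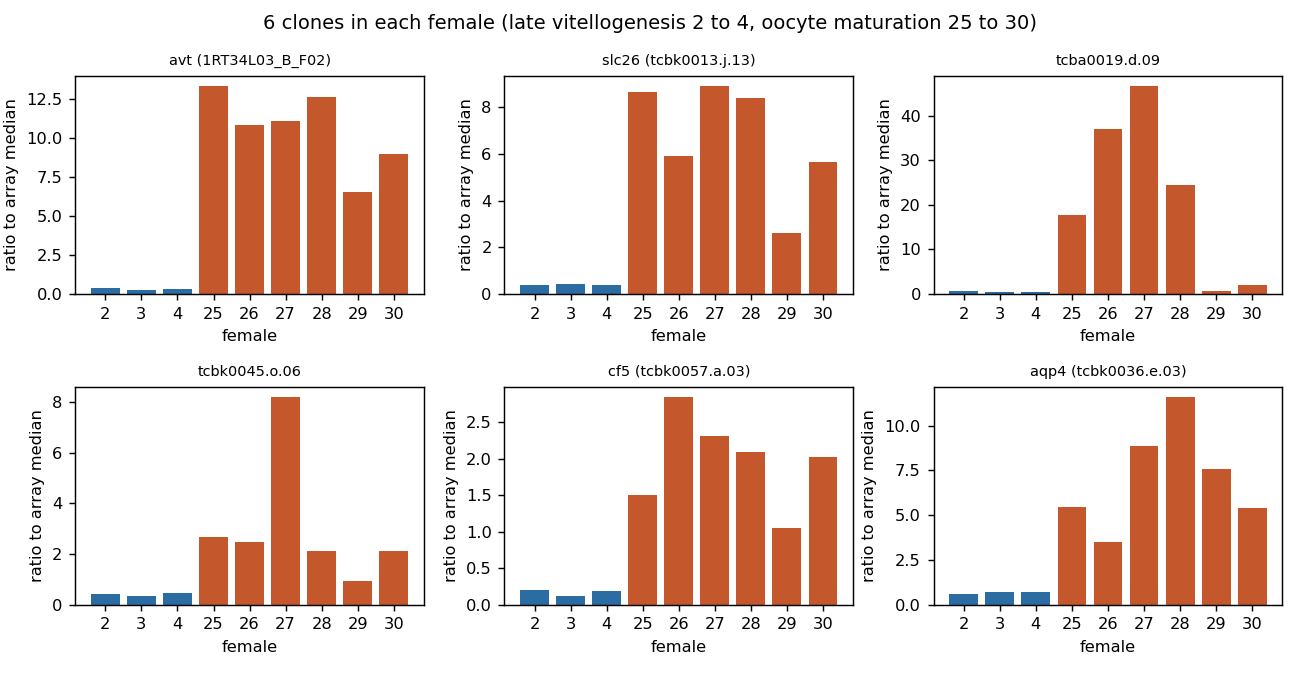
Ratio to the array median (vertical axis, a separate scale in each panel) in each female for 6 rising clones. Blue bars are late vitellogenic females 2 to 4 and orange bars maturing females 25 to 30, 1 array each. The panels show avt raised in all 6 maturing females (6.53 to 13.3), slc26 lowest in female 29 (2.63), and tcba0019.d.09 near the late vitellogenic level in female 29 (0.757).

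A ratio of exactly 0 was listed on all 9 arrays for 281 clones and on some of them for 653. What a listed 0 stands for is not stated, and no fold was computed from it. The lowest ratio above 0 was 0.0628, and some clones at 0 on arrays of a stage had ratios above 1 on all arrays of the other. Clone tcay0036.d.24 was listed at 0 in the 3 late vitellogenic females and at 1.38 to 1.85 in the 6 maturing females, and tcbk0016.a.07 at 0 and at 0.501 to 0.912. The reverse was seen for 7 clones, such as 1RT145I17_A_E09, listed at 2.68 to 2.77 in late vitellogenesis and at 0 in maturation, and tcbk0012.l.17, listed at 2.44 to 3.46 and at 0. Of these 9 clones, 7 were above 0 on some and at 0 on other post-vitellogenic arrays. Females 13 and 14 matched late vitellogenesis and females 15 and 31 matched maturation for tcay0036.d.24, tcbk0016.a.07, tcba0013.n.08, tcbk0012.l.17 and tcbk0030.n.08. For the others of the 7, only female 13 was at 0. Whether such 0s follow the stage or a set of arrays was not tested. Per array, 453.7 ± 43.1 clones (SD, n = 3) were at 0 in the late vitellogenic females, against 555.3 ± 149.0 (SD, n = 6) in the maturing ones. The stages were not separated by the difference of 101.7 (exact permutation test, two-sided, p = 0.36, where 84 splits of the arrays allow a smallest p of 0.024). Maturing females 26 and 30 had the most clones at 0, 725 and 751, against 377 to 511 in the other maturing females.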

How the data were processed

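RNA from whole ovary of single females was labelled with 33P and hybridized by the authors to nylon arrays, 1 female per array. They excluded spots with a low vector oligonucleotide signal, corrected each signal for the DNA in the spot and divided it by the array median. The deposited values are these ratios, with medians of 1. How duplicate spots were combined is not given in the sources used here. All 13 columns matched samples, and 9 were used. The depth of an array is not defined, and the number of arrays limits the precision. Ratios were transformed to log2 and fitted with limma 3.58.1 in R 4.3.3 (Benjamini-Hochberg over 8089 clones, two-sided, threshold 0.05). The fit was tried on simulated data with independent noise of equal size on every array. Such data hold no array that stands apart and no trend with level, so they do not show how the fit handles these. The methods named SAM, so a SAM-style test over all 84 splits was an alternative. Further alternatives were pseudocounts, quantile normalization, centring, filters, array weights, robust spread, thresholds and leaving out females. Named clones were all listed clones, the 10 largest rises and falls, the 8 largest of each among unlisted clones, the lowest adjusted p values, and clones at 0 throughout a stage. The comparison, the clone lists and the rules were chosen with earlier results of these data known. The spread is that between separate females. Some listed clones are counted in their lists without being named, and their values are not reported here.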

Additional observations from a re-analysis of the deposited data

Results flagged for a closer look

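Among the 105 named clones, 8 had a maturing female far from the other 5 (a gap to its neighbour above Dixon's critical value). Chance alone gives such a gap in about 0.05 of groups. The named clones were mostly chosen as listed or most changed, and the share flagged over all clones was not computed. Whether 8 of 105 exceeds the chance rate was not tested, so the values below only describe these 8 clones. Female 29 was lowest for 4 of them: slc26 (tcbk0013.j.13) had a ratio of 2.63 against 5.65 to 8.9 in the other maturing females, the dystrophin-like clone 1RT38L12_D_F06 had 2.85 against 4.78 to 6.12, the RGS18-like clone tcbk0004.a.22 had 0.638 against 1.11 to 1.38, and the glypican-3-like clone tcbk0013.j.22 had 0.38 against 0.684 to 0.888. Female 27 had the highest ratio of cyp19a1 on tcac0004.f.21, 2.09 against 1.24 to 1.39, but not on tcbk0013.n.16, and the lowest of the dystrophin-like clone tcbk0050.j.02, 0.725 against 0.835 to 0.9. Female 28 had the lowest ratio of the GPX4-like clone tcad0009.n.15, 0.943 against 1.88 to 2.84, and the highest of 1RT31H12_D_D06, a clone with no SwissProt match, 2.26 against 1.6 to 1.76. Outside the clones compared, 2 clones were listed at 0 on all late vitellogenic arrays and above 0 on all maturing ones (tcay0036.d.24 and tcbk0016.a.07).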

How the results depend on the processing

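The count of called clones (289, with 175 higher and 114 lower) fell to 146 (89 higher, 57 lower) when clones at 0 on some arrays were kept with a pseudocount of 0.1, to 103 (80 and 23) at an adjusted p under 0.007 and to 102 (78 and 24) with a change of at least 2 times, and rose to 1271 (602 and 669) with array weights, which ran from 0.287 for female 30 to 4.26 for female 4. With 1 female left out it was 124 to 455, with 85 to 231 higher and 28 to 224 lower. The stages did not overlap for 815 clones as reported and for 907 to 1515 with 1 female left out, a count that cannot fall when an array is removed. Without female 25 or 27, 67 or 62 were lower. Leaving out females 3 and 30 together, chosen after seeing the data as was cyclic loess and a filter on all 13 arrays, gave 335 calls, 173 lower and 1699 clones without overlap. Calls numbered 280 to 423 under the remaining alternatives, the SAM-style test giving 423 and the 3 stages fitted together 326, of which 256 were called here in the same direction. Centring gave the most even split among the scalings, 51.4% higher. Of the 105 named clones, 43 changed call in some setting and 0 changed direction. The difference in clones at 0 per array was 62.5 to 137.3 with 1 female left out. No paired analysis was possible because the stages share no female and no replicate number.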
